A study of Mus musculus with 20 samples.

Results

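The genotype effect on the hypothalamus by day was measured in 10 of the 20 libraries of a study of mice that carry a deletion of both Ndn and Magel2. The libraries were chosen by their file labels, 5 of deletion mice (KO_day) and 5 of wild-type mice (WT_day), all taken 6 h after light on, and the comparison ran over 22181 tested genes. The title of KO_day 5 gives no time, which was taken from its time field, and the title of WT_day 5 repeats the number of WT_day 4, so its replicate number is assigned. KO_day mice are the double knockout line named MADIN by the submitters, although the genotype field of each library speaks of a knockdown of magel2/necdin. WT_day mice are C57BL/6J, and neither group carries any other allele or treatment in the labels. Mice had free access to food and water in a standard light and dark cycle. The labels give neither the background and breeding of the MADIN line nor the age and sex of the mice. They do not say whether each library is a different mouse, and the p values cover only the spread among these samples, which may be technical. Sequencing used rRNA-depleted total RNA from whole hypothalamus as labelled. The 10 libraries of the night, 5 of KO and 5 of WT, 18 h after light on, entered the same fit and give the night values set beside those of the day.

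Ndn and Magel2 encode 2 related MAGE proteins and lie side by side in the chromosomal region whose paternal copy is lost in Prader-Willi syndrome. Magel2 protein works with ubiquitin ligases in the sorting of membrane proteins from endosomes, and necdin restrains growth and supports neurons. The hypothalamus, where both are abundant, controls feeding, hormone release, body temperature and sleep, and in nocturnal mice the light phase is the time of rest.

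Levels are given in CPM, counts scaled to the library's adjusted total, and changes on the log2 scale, KO_day over WT_day, so that positive values mean higher in KO_day. A gene passed where its adjusted p, from edgeR's quasi-likelihood test with Benjamini-Hochberg adjustment over all tested genes, was under 0.05, and it is then said to have risen or fallen. Libraries held 37274780 to 47891820 counts in KO_day and 34812131 to 48697647 in WT_day. Mitochondrial ribosomal RNA took 19.5% to 22.6% of counts in KO_day and 19.6% to 21.7% in WT_day, and all 10 libraries carried the Y-linked gene Ddx3y at 98.3 to 108 CPM and at most 0.358 CPM of Xist. Markers of the hypothalamus were present in every library, with 1040 to 1240 CPM summed over 15 genes in KO_day and 978 to 1150 CPM in WT_day. KO_day 1 and KO_day 2 have a time field that says night, against their titles. Dbp, a clock output gene, stood at 36.1 and 37.1 CPM in these 2 libraries, at 39.4 to 44.1 in KO_day 3, 4 and 5, and at 28.8 to 38.6 in WT_day. Without night levels of Dbp beside them, these values cannot decide the time of the 2 libraries, and no library was moved. Pituitary RNA differed between libraries, with Gh, the growth hormone gene, at 6.59 to 39.1 CPM in KO_day, at 656 in WT_day 1 and at 17 to 84.8 in the other 4 WT_day libraries.

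At the deleted genes the library labelled WT_day 3 did not look like the rest of its group. Ndn stood at 0.726, 0.444, 0.746, 0.248 and 0.475 CPM in KO_day 1 to 5, against 248, 274, 31.0, 269 and 260 CPM in WT_day 1 to 5. Magel2 stood at 0.0269, 0.164, 0.110, 0.0276 and 0.0413 CPM in KO_day, with 1 to 7 counts per library, against 15.6, 15.9, 2.16, 16.2 and 17.9 CPM in WT_day. WT_day 3 thus lay at 11.8% of the mean of the 4 other WT_day libraries for Ndn and at 13.1% for Magel2. Its exact 95% intervals were 28.9 to 32 CPM and 1.73 to 2.57 CPM, taken on the library's total before adjustment and covering counting error only. They exclude both the level of the other WT_day libraries and that of KO_day. Ndn fell by 8.68 ± 0.498 on the log2 scale (SE; adjusted p = 9.02e-11) with a change of -8.95 without WT_day 3 (8.08e-21), and Magel2 fell by 7.44 ± 0.554 (1.12e-08) with a change of -7.71 without it (7.70e-18). Most results on passing genes and lists are therefore given with all 5 WT_day libraries and without WT_day 3. Where only 1 value stands, it is from all 5.

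**Figure D1:**
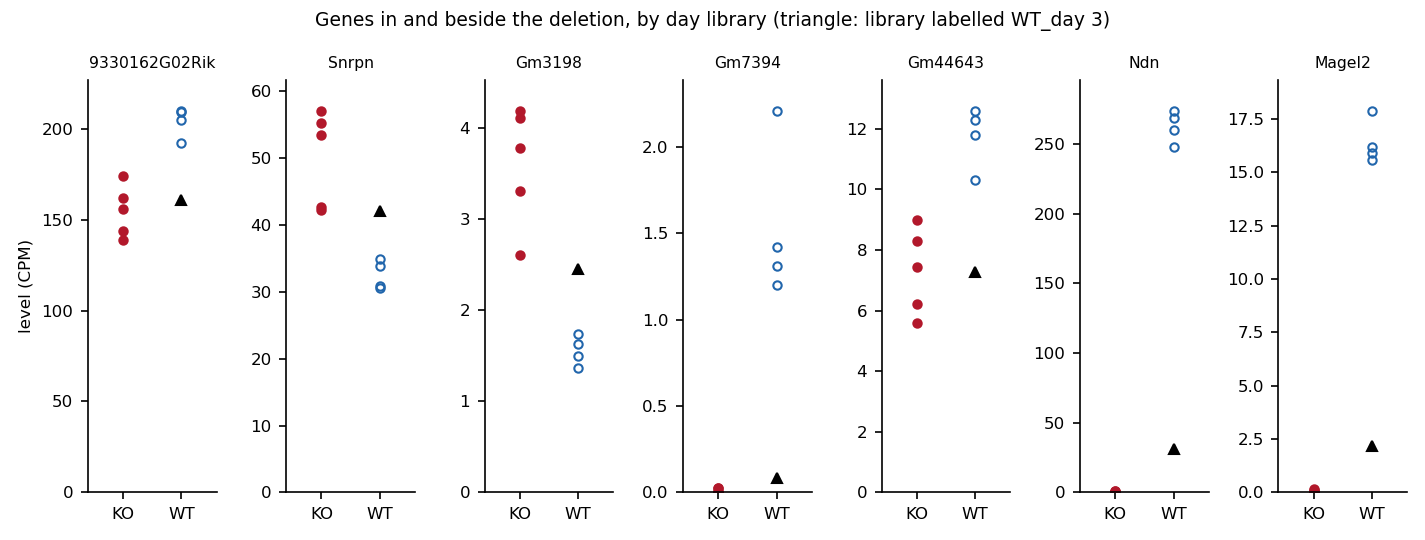
Level in CPM (each axis from 0) of 5 genes beside the deletion and of Ndn and Magel2 in the 5 KO_day libraries (red, left of each panel) and the 5 WT_day libraries (right). The library labelled WT_day 3 (triangle) lies at 31.0 CPM of Ndn, between KO_day and the 4 other WT_day libraries, and nearer KO_day than the other WT_day libraries do in all 7 panels.

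Genes beside the deletion showed the same split of WT_day 3 from its group. Gm32061, a long noncoding RNA annotated on the opposite strand across Ndn and Magel2 (7:62337794 to 62423245 in GRCm38), stood at 0.910 to 1.59 CPM in KO_day and at 265, 292, 33.9, 290 and 283 CPM in WT_day 1 to 5, which follows the sum of Ndn and Magel2 in each WT_day library, so its own RNA is uncertain. The processed pseudogene Gm7394 (7:60754882 to 60756779) had 1, 0, 1, 0 and 0 counts in KO_day 1 to 5, against 1.31, 1.42, 0.0837, 1.20 and 2.21 CPM in WT_day 1 to 5. Its neighbour Gm3198 (7:60643891 to 60645785) stood at 2.61, 4.19, 3.78, 3.31 and 4.11 CPM in KO_day, against 1.74, 1.63, 2.45, 1.37 and 1.5 CPM in WT_day. Gm7394 was low and Gm3198 high in KO_day, and in both WT_day 3 was the WT_day library nearest to KO_day. Gm7394 fell (adjusted p = 1.33e-04) and Gm3198 rose by 1.04 ± 0.156 (0.00246, and 2.22e-04 without WT_day 3), while their sum was 3.61 ± 0.645 CPM in KO_day and 2.98 ± 0.474 in WT_day (SD, n = 5 each; two-sided exact permutation p = 0.119, and 0.222 without WT_day 3). The pseudogenes are 96.1% identical over 1025 aligned bases, and 9.26% of the 50-base, 2.30% of the 75-base and 0% of the 100-base stretches of Gm7394 recur in Gm3198. The part of misassigned reads in these values was not tested. The stretches below (GENCODE M21 on GRCm38, plus strand) show a window of both in which 3 bases, in capitals, differ.
Gm7394, chr7:60754971-60755030: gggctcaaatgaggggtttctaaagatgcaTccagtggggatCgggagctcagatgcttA
Gm3198, chr7:60643980-60644039: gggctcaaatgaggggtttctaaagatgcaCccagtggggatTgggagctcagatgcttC

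A further 3 genes of the same stretch of chromosome 7 passed only without WT_day 3. Snrpn, a splicing factor gene of the imprinted domain, stood at 42.7, 57.1, 53.5, 42.2 and 55.3 CPM in KO_day 1 to 5, against 30.8, 30.5, 42.1, 33.9 and 34.9 CPM in WT_day 1 to 5. Its change was 0.54 ± 0.124 (adjusted p = 0.0788), and without WT_day 3 it rose by 0.64 (0.0423). Gm44643, a lincRNA, stood at 5.59 to 8.98 CPM in KO_day, at 7.26 in WT_day 3 and at 10.3 to 12.6 in the 4 other WT_day libraries, and its change was -0.67 without WT_day 3 (adjusted p = 0.0171) and -0.56 with it (0.0929). 9330162G02Rik, which overlaps Ube3a on the opposite strand and may hold its reads, stood at 139 to 174 CPM in KO_day, at 161 in WT_day 3 and at 192 to 210 in the others (change -0.39, 0.0246 without WT_day 3, and -0.33, 0.0788 with it). WT_day 3 lay inside the KO_day range for these last 2 genes and just below the lowest KO_day library for Snrpn. Of the 36 genes tested in the 5 Mb before Ndn, 2 passed (5.56%), both of them the pseudogenes, and 5 did so without WT_day 3 (13.9%), against 0 of 37 within 5 Mb after Magel2, 4 of 1590 in the rest of chromosome 7 (0.252%) and 16 of 20515 on other chromosomes (0.0780%). Of the 14 tested neighbours in the Prader-Willi region list 4 were higher and 10 lower in KO_day, and none passed, with Peg12 at 0.98 (adjusted p = 0.252) and Ube3a at -0.11 (0.553).

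Over all genes, 25 of 22181 passed at an adjusted p under 0.05 (0.113%), 14 of which rose (0.0631%) and 11 fell (0.0496%). Without WT_day 3 27 of 22374 passed (0.121%), of which 17 rose (0.0760%) and 10 fell (0.0447%), and 20 of these were among the 25. Unadjusted p was under 0.05 for 2133 genes (9.62%). Groups did not overlap for 604 genes (2.72%), with every KO_day library above every WT_day library for 329 (1.48%) and below for 275 (1.24%). The median change of all tested genes was -0.0055, and 47.8% were higher and 52.2% lower in KO_day. Apart from Ndn, Magel2, Gm32061 and the 2 pseudogenes, 20 genes passed, 13 of which rose and 7 fell. Of these, 18 were protein-coding, and folds ran from 1.18 to 2.36, with 15 under 1.5. All 20 had groups without overlap, WT_day 3 included, but they were chosen for their change between these same libraries. The lack of overlap is therefore not independent of that choice. The count depended on the libraries in the fit, from 15 without KO_day 3 or KO_day 4 to 73 without KO_day 2, and was 127 in a fit to the day libraries alone and 29 in that fit without WT_day 3. Without KO_day 1 and KO_day 2, whose time labels disagree, 76 passed, 23 of the 25 among them and Fosb and Notch1 not (adjusted p = 0.0937 and 0.0560). Of the 20 genes 6 passed in each of 31 alternative fits, among them Mtss1l, Celsr2, Pdgfd, Pnpla7 and the noncoding 4930545L23Rik. This noncoding gene stood at 7.28 to 10.2 CPM in KO_day and 14.5 to 16.2 in WT_day (change -0.69, adjusted p = 0.00493, and 0.0122 without WT_day 3). Since it lies opposite Plcb1 (344 CPM over all 20 libraries, change -0.30), its level is uncertain.

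**Figure D2:**
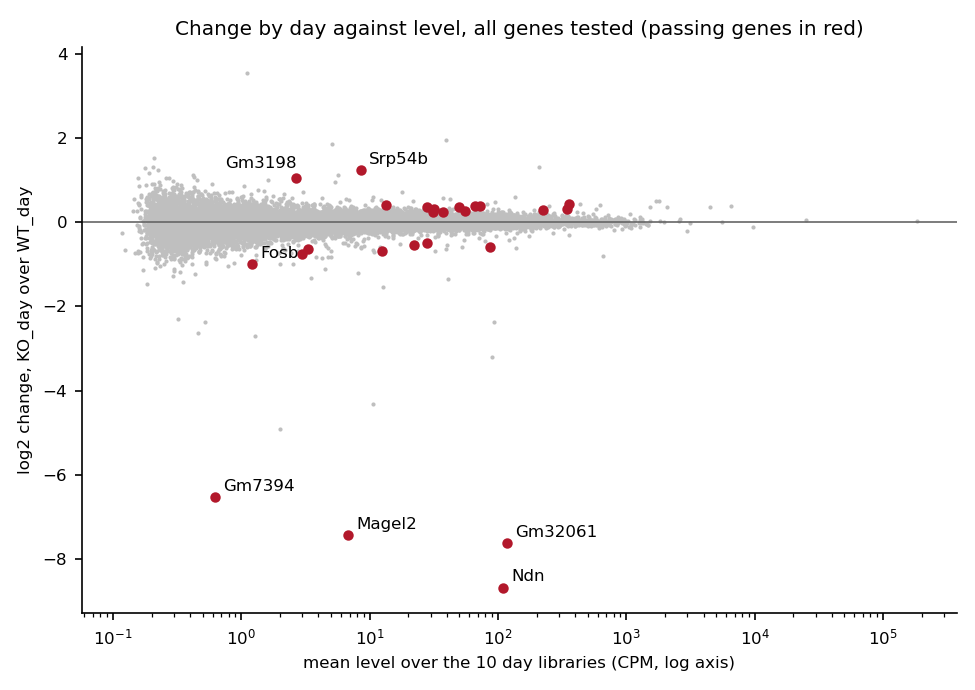
Change by day (KO_day over WT_day, log2) against the mean level over the 10 day libraries in CPM, for the tested genes, with the 25 passing genes in red and those beyond 0.9 in either direction named. Ndn, Gm32061, Magel2 and Gm7394 stand apart at changes from -8.68 to -6.53, and the other passing genes lie within -0.99 and 1.24.

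**Figure D3:**
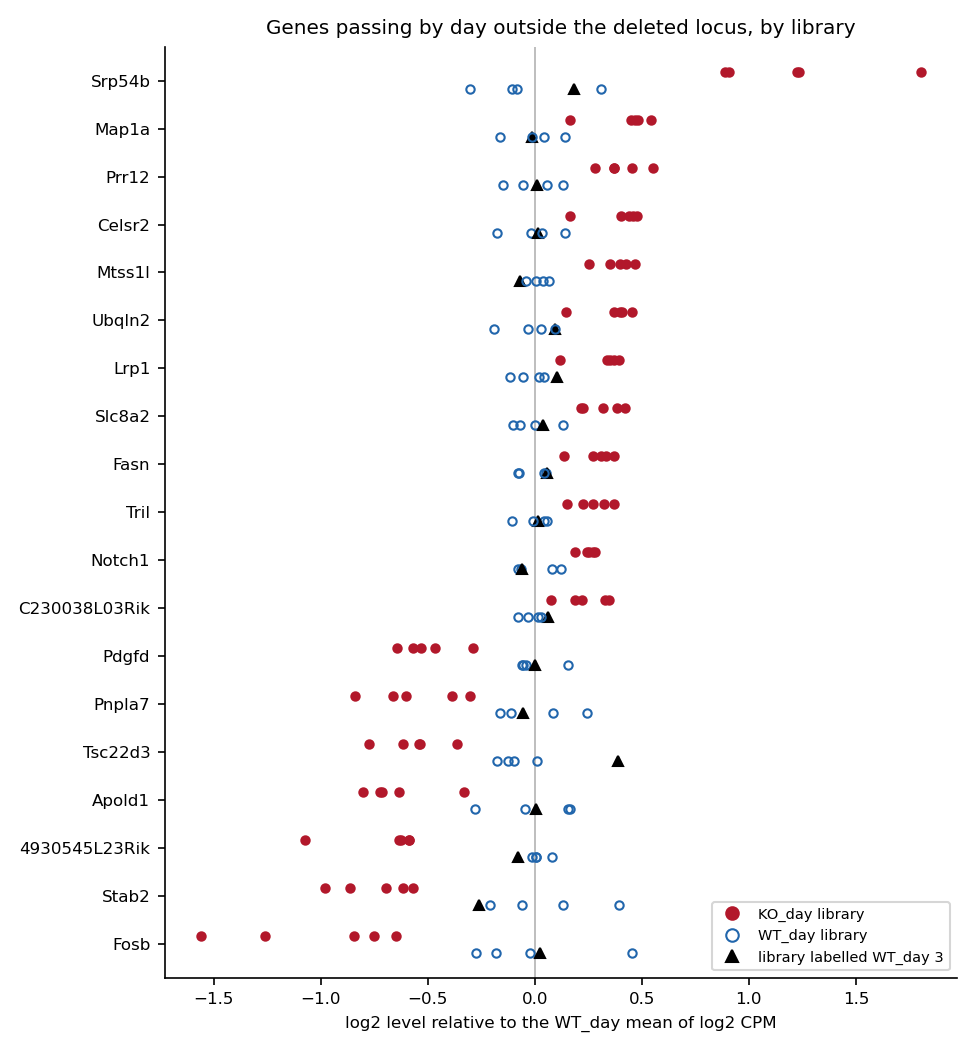
Level of 19 of the 20 passing genes outside the deleted locus in each library, as log2 CPM relative to the mean over WT_day. The KO_day libraries of a gene (red) are drawn in a row over its WT_day libraries (blue), with WT_day 3 as a black triangle. No KO_day library crosses into the WT_day range for any of the 19 genes drawn, which were chosen for their change between these libraries.

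A synthetic enzyme and a receptor of lipid handling were among the genes that rose in KO_day. Fasn, the fatty acid synthase, stood at 261, 222, 244, 250 and 254 CPM in KO_day, against 209, 191, 210, 208 and 192 CPM in WT_day. KO_day 2 was the lowest KO_day library and still above WT_day. Fasn rose by 0.28 ± 0.0545 (1.22-fold, adjusted p = 0.0310, and 0.0254 without WT_day 3). Lrp1, an endocytic receptor for apolipoprotein E and other ligands, rose by 0.32 ± 0.0625 (1.24-fold, adjusted p = 0.0395, and 0.0254 without WT_day 3). Lrp1 stood at 396, 333, 391, 387 and 402 CPM in KO_day, against 295, 283, 329, 316 and 311 CPM in WT_day, where KO_day 2 came close to WT_day 3. Fasn did not pass without WT_day 1, 2 or 5, KO_day 3, 4 or 5 or WT_night 2 (adjusted p 0.0503 to 0.0968), nor Lrp1 without these or KO_day 1 (0.0523 to 0.118), nor did either with the trend with gene length removed (0.0893 and 0.103).

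Genes of cholesterol synthesis and its regulation were mostly higher by smaller amounts. Of the 23 tested genes of that list 20 were higher and 3 lower in KO_day, 1 rose, none fell, and the median change was 0.09, with or without WT_day 3, beside -0.0055 over all genes. Lss, lanosterol synthase, was at 27.0 ± 1.22 CPM in KO_day and 24.2 ± 0.914 in WT_day (SD, n = 5 each; change 0.16, adjusted p = 0.302), without overlap between groups. Srebf2, the transcription factor of the pathway, changed by 0.12 (0.335) and Dhcr7, the enzyme of the last step, by 0.14 (0.408), and neither passed. The median change at night was 0.08. Oligodendrocyte markers, whose cells make much of the sterol of brain, moved alongside, with 8 of 10 higher, none passing and a median change of 0.12, and summed levels of 2230 to 2590 CPM in KO_day and 2240 to 2460 in WT_day; their part in the result was not tested. In RNA of a whole tissue, fewer cells of a type and less RNA per cell cannot be told apart.

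Pnpla7 fell, an enzyme that breaks down lysophospholipids (2:24976033 to 25054057). It stood at 20, 17.2, 16.5, 14.6 and 21.2 CPM in KO_day 1 to 5, against 23.3, 24.2, 25.1, 27.7 and 30.9 CPM in WT_day 1 to 5. The groups did not overlap, and both spread over several CPM. Its fall was 0.55 ± 0.0926 (1.46-fold, adjusted p = 0.00965; 0.0200 without WT_day 3), and it passed in all 31 alternatives. At night the means were close, at 18.0 ± 2.18 in KO_night and 18.2 ± 0.885 CPM in WT_night (SD, n = 5 each), and WT_day had the highest of the 4 group means. Pdgfd, a growth factor that signals through the platelet-derived growth factor receptor of pericytes and other cells (9:6168584 to 6378850), stood at 26.8, 23.7, 22.7, 22.1 and 21 CPM in KO_day, against 31.4, 31.9, 32.8, 31.5 and 36.5 CPM in WT_day. It fell by 0.50 ± 0.0657 (1.41-fold, adjusted p = 3.84e-04; 0.00210 without WT_day 3), likewise in all 31 alternatives. Stab2, a scavenger receptor for hyaluronan, fell by 0.75 ± 0.132 (1.68-fold, adjusted p = 0.0140; 0.0122 without WT_day 3), at 1.88 to 2.50 CPM in KO_day and 3.10 to 4.87 in WT_day. Its count may hold reads of Gm16268 on the opposite strand, whose level was about as high (3.04 beside 2.95 CPM over all 20 libraries, change by day -0.63). Stab2 did not pass without WT_day 5 (0.0624) or KO_day 4 (0.0611), nor with time taken from the time field (0.0706). Vessel markers moved little beside these genes. Of 14 endothelial markers 9 and of 9 pericyte and smooth muscle markers 7 were lower, none passed, and medians were -0.03 and -0.12 (-0.04 and -0.06 without WT_day 3), with summed levels of 235 to 278 and 115 to 173 CPM in KO_day and 255 to 274 and 135 to 147 in WT_day. Their part in the falls was not tested.

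Among the genes that rose were Celsr2, Map1a, Mtss1l and Notch1, which encode proteins of cell contact, signalling and the cytoskeleton. Celsr2, a cadherin of planar cell polarity, stood at 85.0, 70.2, 87.1, 82.6 and 85.9 CPM in KO_day 1 to 5, against 61.9, 55.3, 63.2, 69.1 and 64.1 CPM in WT_day 1 to 5. Map1a, which binds microtubules of dendrites, stood at 448, 345, 425, 420 and 429 CPM in KO_day, against 317, 275, 305, 339 and 305 CPM in WT_day. In both genes KO_day 2 was far below the other KO_day libraries and just above the highest WT_day library, WT_day 4. Celsr2 rose by 0.39 ± 0.0631 (1.31-fold, adjusted p = 0.00590, and 0.0122 without WT_day 3) and passed in all 31 alternatives. So did Mtss1l, an actin and membrane binding protein, which stood at 68.3 to 79.4 CPM in KO_day and 54.6 to 60 in WT_day. Mtss1l rose by 0.38 ± 0.0675 (adjusted p = 0.0140, and 0.0285 without WT_day 3). Map1a rose by 0.42 ± 0.0764 (1.34-fold, adjusted p = 0.0175, and 0.0326 without WT_day 3). Its count may hold reads of Ppip5k1 on the opposite strand (73.8 CPM over all 20 libraries, change -0.01). Map1a did not pass without WT_day 2 (0.0797) or KO_day 3 (0.0566). Notch1, the receptor that holds neural progenitors back from differentiating, stood at 32.3, 34.2, 33.8, 33.6 and 34.4 CPM in KO_day, against 26.8, 27.1, 27.2, 30.8 and 30.0 CPM in WT_day. It rose by 0.25 ± 0.0501 (1.19-fold, adjusted p = 0.0480), but not without WT_day 3 (0.0851), and it did not pass without WT_day 1 or 2, KO_day 3, 4 or 5, WT_night 2 or KO_night 3 either (0.0567 to 0.121). Its call was also lost with the length trend removed (0.22, 0.101), with only libraries whose time labels agree (0.0682) and with time taken from the time field (0.0502). The count of Notch1 may hold reads of 0610009E02Rik on the opposite strand (7.81 CPM over all 20 libraries, change -0.11).

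Of the 20 tested genes of planar polarity and Wnt signalling 17 were higher, 1 rose, and the median change was 0.06 (0.07 without WT_day 3). Celsr1, a second cadherin of the family, was at 7.53 to 8.44 CPM in KO_day and 6.06 to 6.56 in WT_day (change 0.35, adjusted p = 0.0830), and Vangl2, a membrane protein of the same pathway, changed by 0.23 (0.124). The giant cadherins Dchs1 and Fat4, which bind each other across cell contacts, passed only without WT_day 3. Their changes were then 0.30 (0.0373) and 0.28 (0.0442), beside 0.27 (0.0513) and 0.25 (0.0518) with it. Dchs1 may hold reads of Gm15645 on the opposite strand, whose level was higher (35.4 beside 27.1 CPM over all 20 libraries, change 0.08). Fat4 may hold reads of C230034O21Rik (6.14 CPM, change 0.17). Of the 22 cytoskeletal genes 19 were higher, 2 rose (Mtss1l and Map1a), and the median was 0.07 (0.08 without WT_day 3, and 0.04 with the length trend removed). Of the 24 chromatin regulators with large coding regions 22 were higher, 1 rose, and 8 had groups without overlap (2.72% over all genes). Their median was 0.12, 0.14 without WT_day 3 and 0.05 with time taken from the time field, and at night it was -0.08, with 19 of 24 lower. The one that rose, Prr12, a proline-rich nuclear protein, stood at 14 to 16.9 CPM in KO_day and 10.4 to 12.6 in WT_day and rose by 0.41 (adjusted p = 0.0488, and 0.0805 without WT_day 3). Nor did it pass without WT_day 1 or 2, KO_day 3, 4 or 5, WT_night 2 or KO_night 3 (0.0589 to 0.118), nor with time taken from the time field (0.0532). Kmt2d, a histone methyltransferase, was at 0.30 (0.138) and Chd4, a chromatin remodeller, at 0.18 (0.113). These gene lists and their members were chosen with earlier results of these data known. Counts of members that were higher, rose or had no overlap are not independent of that choice.

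Gene length and base composition differed alongside, and their part in these rises was not tested beyond the removal of each trend. The 12 protein-coding genes that rose had a median exonic length of 8403.5 bases and a median GC content of 57.5%, against 4281 bases and 49.8% over the 15743 protein-coding genes tested. Over protein-coding genes with at least 1 CPM the median change was -0.037 in the shortest of 5 equal bins, where 34.2% were higher, and 0.019 in the longest, where 60.2% were higher. At night the order was reversed, with medians of 0.090 and -0.063. With the trend with length removed 32 genes passed, 22 of the 25 among them, and with the trend with GC content removed 66 passed, all 25 among them. Ribosomal protein genes, which are short, were lower for 72 of 74 with a median of -0.10, and nuclear genes of oxidative phosphorylation were lower for 69 of 79 with a median of -0.07. None of either list passed. Summed levels overlapped between groups, at 6660 to 7920 CPM in KO_day and 7200 to 7830 in WT_day for the ribosomal protein genes. For the oxidative phosphorylation genes they were 4860 to 5600 CPM in KO_day and 5320 to 5500 in WT_day. KO_day 4 was the highest day library in both lists. With time taken from the time field the medians were -0.02 and 0.04, and at night 73 of 74 and 76 of 79 were higher, with medians of 0.08 and 0.15.

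Other genes that rose act at synapses, in protein turnover and in glia. Slc8a2, a sodium and calcium exchanger of neurons, stood at 37.8, 33.0, 35.2, 36.9 and 32.8 CPM in KO_day 1 to 5, against 28.3, 26.3, 29.0, 30.9 and 26.9 CPM in WT_day 1 to 5. It rose by 0.31 ± 0.0552 (1.24-fold, adjusted p = 0.0140; 0.0200 without WT_day 3) and failed only without WT_day 2 (0.0597) among the 31 alternatives. Ubqln2, a ubiquilin that carries ubiquitinated proteins to the proteasome, stood at 55.8, 47.9, 59.2, 57.3 and 57.0 CPM in KO_day, against 44.1, 37.9, 46.2, 46.2 and 42.3 CPM in WT_day. The lowest KO_day library, KO_day 2, was close to WT_day 3 and WT_day 4. Ubqln2 rose by 0.35 ± 0.0667 (1.28-fold, adjusted p = 0.0271; 0.0229 without WT_day 3). Tril, an accessory protein of Toll-like receptors in glia, stood at 56.1 to 65.3 CPM in KO_day and 47.0 to 52.5 in WT_day, and rose by 0.27 (1.21-fold, adjusted p = 0.0372; 0.0442 without WT_day 3), with Gm16499 on the opposite strand (18.8 CPM, change 0.23). Ubqln2 did not pass without WT_day 1, 2 or 5 or KO_day 3, 4 or 5 (0.0547 to 0.0978), nor Tril without these, KO_day 1 or WT_night 2 (0.0547 to 0.114). C230038L03Rik, a noncoding gene that overlaps Tenm4 and Nars2 on the opposite strand, rose by 0.23 (1.18-fold, adjusted p = 0.0430; 0.0337 without WT_day 3), and its level is uncertain. It did not pass without WT_day 1, 2 or 5, KO_day 3 or 5, WT_night 2 or KO_night 3 (0.0533 to 0.119). Cngb1, a subunit of cyclic nucleotide-gated channels, and the noncoding Gm13610, which lies opposite Prrc2b (200 CPM, change 0.29), complete the 7 genes that passed only without WT_day 3, at 0.33 (adjusted p = 0.0422) and 0.37 (0.0281), beside 0.30 (0.0513) and 0.31 (0.0591) with it. Among astrocyte markers 7 of 10 were higher, none passed, and the median was 0.06, with Sox9 at 0.41 (adjusted p = 0.110).

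Srp54b had the largest rise of the 14 genes that rose, and most of its sequence is shared with its copies. It encodes a subunit of the signal recognition particle, which guides new secretory proteins to the endoplasmic reticulum. Srp54b (12:55155104 to 55189573) stood at 11.7, 9.40, 11.8, 9.29 and 17.5 CPM in KO_day 1 to 5, against 4.73, 4.66, 5.69, 6.21 and 4.06 CPM in WT_day 1 to 5. KO_day 5 was the highest, and no KO_day library reached down to WT_day. It rose by 1.24 ± 0.213 (2.36-fold, adjusted p = 0.0112; 0.0200 without WT_day 3), but its call was lost with time taken from the time field (0.94, 0.0502). Srp54a averaged 11.4 ± 1.13 CPM in KO_day and 11.6 ± 1.04 in WT_day, and Srp54c 16.7 ± 1.07 in KO_day and 17.3 ± 1.6 in WT_day (SD, n = 5 each; two-sided exact permutation p = 0.706 and 0.460). Srp54a, Srp54b and Srp54c summed reached 37.4, 39.0, 39.6, 36.8 and 47.2 CPM in KO_day, against 33.6, 33.8, 36.2, 33.4 and 33.1 CPM in WT_day, and did not overlap. The exact permutation p of the sum, 0.00794, is the smallest that 5 against 5 libraries allow, and without WT_day 3 it was 0.0159, again the smallest. The sum holds Srp54b, which was chosen for its change in these same libraries, so this p is not independent of that choice. The coding sequences of Srp54a and Srp54b, 1515 bases each with the stop codon, are identical, and 99.1% of the 75-base stretches of the Srp54b transcript also occur in Srp54a or Srp54c. Srp54c differs from both at 6 coding positions, counted from the first base of the start codon. The stretch from position 906 to 965 (GENCODE M21, GRCm38, plus strand) shows 3 of these in capitals, T945C, G946A and T965G.
Srp54a, chr12:55102487-55102546: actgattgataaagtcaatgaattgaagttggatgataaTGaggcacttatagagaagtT
Srp54b, chr12:55177547-55177606: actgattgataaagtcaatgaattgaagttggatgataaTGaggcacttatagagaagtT
Srp54c, chr12:55252791-55252850: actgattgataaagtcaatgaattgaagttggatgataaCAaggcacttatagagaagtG

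Genes induced by activity were lower in KO_day, and 2 of them fell. Fosb, a transcription factor of the AP-1 family that neurons switch on after firing (7:19302696 to 19310051), stood at 0.941, 0.538, 0.884, 0.662 and 1.01 CPM in KO_day 1 to 5, against 1.56, 1.40, 1.61, 2.17 and 1.31 CPM in WT_day 1 to 5. Apold1, an early response gene of vessel lining (6:134981718 to 134986836), stood at 3.17, 2.57, 2.43, 2.29 and 2.42 CPM in KO_day, against 4.45, 3.29, 4.0, 3.86 and 4.47 CPM in WT_day. For Apold1 KO_day 1 came within 0.2 CPM of WT_day 2, and for Fosb the groups were further apart relative to their level. Fosb fell by 0.99 ± 0.195 (1.98-fold, adjusted p = 0.0395) and Apold1 fell by 0.64 ± 0.127 (1.56-fold, 0.0395). Neither passed without WT_day 3 (0.0805 for both), although their changes of -0.98 and -0.63 hardly moved. Fosb passed in 11 and Apold1 in 12 of the 20 fits that each left out 1 library, with adjusted p up to 0.107 for Fosb and 0.133 for Apold1. Fosb also failed without WT_day 1, 2, 4 or 5, WT_night 2 or KO_day 2, 3 or 4, and Apold1 without WT_day 1, 4 or 5, WT_night 2 or KO_day 3, 4 or 5. With only libraries whose time labels agree Fosb did not pass (0.0966), nor did Apold1 with time taken from the time field (0.0773). Of the 24 immediate early genes 20 were lower and 4 higher, and the median change was -0.16 (-0.15 without WT_day 3, -0.06 with time taken from the time field, and 0.17 at night). Their summed levels overlapped, at 130 to 163 CPM in KO_day and 157 to 166 in WT_day. Fosl2 was at 13.7, 8.51, 8.23, 9.46 and 8.05 CPM in KO_day, against 14.4, 15.5, 14.9, 14.3 and 12.6 CPM in WT_day (change -0.59, adjusted p = 0.0788), where KO_day 1 alone lay in the WT_day range. Fos was at -0.24 (0.756) and Arc at -0.03 (0.955).

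The promoters of the 2 genes are shown because cyclic AMP response elements are a known entry point of neuronal activity into early response genes. The capitals mark TGACG or its complement CGTCA, the core of such an element, in the 250 bases before the start (RefSeq, GRCm38.p6, each on its own gene's strand).
Fosb, chr7:19310046-19310295, minus strand: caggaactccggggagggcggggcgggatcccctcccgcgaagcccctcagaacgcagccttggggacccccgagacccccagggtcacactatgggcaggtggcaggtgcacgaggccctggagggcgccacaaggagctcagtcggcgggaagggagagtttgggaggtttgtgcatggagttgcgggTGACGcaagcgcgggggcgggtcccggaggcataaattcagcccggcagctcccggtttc
Apold1, chr6:134981751-134982000, plus strand: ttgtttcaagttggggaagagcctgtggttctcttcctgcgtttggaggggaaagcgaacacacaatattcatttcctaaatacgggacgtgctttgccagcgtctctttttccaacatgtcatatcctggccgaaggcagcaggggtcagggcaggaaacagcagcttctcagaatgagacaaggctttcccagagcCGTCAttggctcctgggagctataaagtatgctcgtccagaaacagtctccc
Read on both strands, TGACG occurs before at least 1 start of 3 of the 7 genes that fell (Apold1, Fosb and Tsc22d3), of 0 of the 9 genes that rose and have a promoter in the table, and of 19.8% of the 27025 genes in it. The CCAAT box, CCAAT read on both strands, occurs for 2 of the 7, for 4 of the 9 (Fasn, Map1a, Slc8a2 and Srp54b) and for 37.5% of all genes. The E-box CACGTG occurs for 1 of the 7 (Pnpla7), 0 of the 9 and 6.86% of all. Neither the sterol element TCACNCCAC nor ACANNNTGT, the core of a glucocorticoid response element, was found for any of the 16 genes. These matches describe letters in a window and are not shown to be sites.

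Glucocorticoid-induced genes were lower in KO_day throughout the list, and the median was smaller without WT_day 3. All 19 tested genes were lower, 1 fell (Tsc22d3), 18 did not pass, and 14 had an unadjusted p under 0.05, beside 9.62% of all tested genes. Summed levels were 331 to 428 CPM in KO_day and 414 to 669 in WT_day. WT_day 3 was the highest WT_day library for 16 of the 19, and the median change was -0.38 with it and -0.25 without it, when 17 were lower, 2 higher and none passed. Tsc22d3, a leucine zipper protein by which glucocorticoids restrain inflammation (X:140539528 to 140600659), stood at 79.4, 59.8, 66.7, 70.2 and 70.5 CPM in KO_day 1 to 5, against 90.5, 93.7, 134, 95.5 and 103 CPM in WT_day 1 to 5. The groups did not overlap even without WT_day 3, which was far above the rest. Tsc22d3 fell by 0.58 ± 0.110 (1.49-fold, adjusted p = 0.0310), and without WT_day 3 its change was -0.45 (0.0805). It did not pass without WT_day 5 or KO_day 3, 4 or 5 either (0.0697 to 0.0978), nor with time taken from the time field (0.191). Plin4, a coat protein of lipid droplets, stood at 7.34, 4.51, 4.75, 3.75 and 4.42 CPM in KO_day, against 9.01, 7.46, 19.5, 8.64 and 12.2 CPM in WT_day (change -1.21, adjusted p = 0.0513; -0.90, 0.130 without WT_day 3). Zbtb16, a zinc finger transcription factor, was at 19.1 to 31.1 CPM in KO_day, at 65.2 in WT_day 3 and at 27.7 to 39.4 in the other 4 WT_day libraries (change -0.69, 0.101; -0.42, 0.257 without WT_day 3). The list's median was 0.24 at night, in the other direction.

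**Figure D4:**
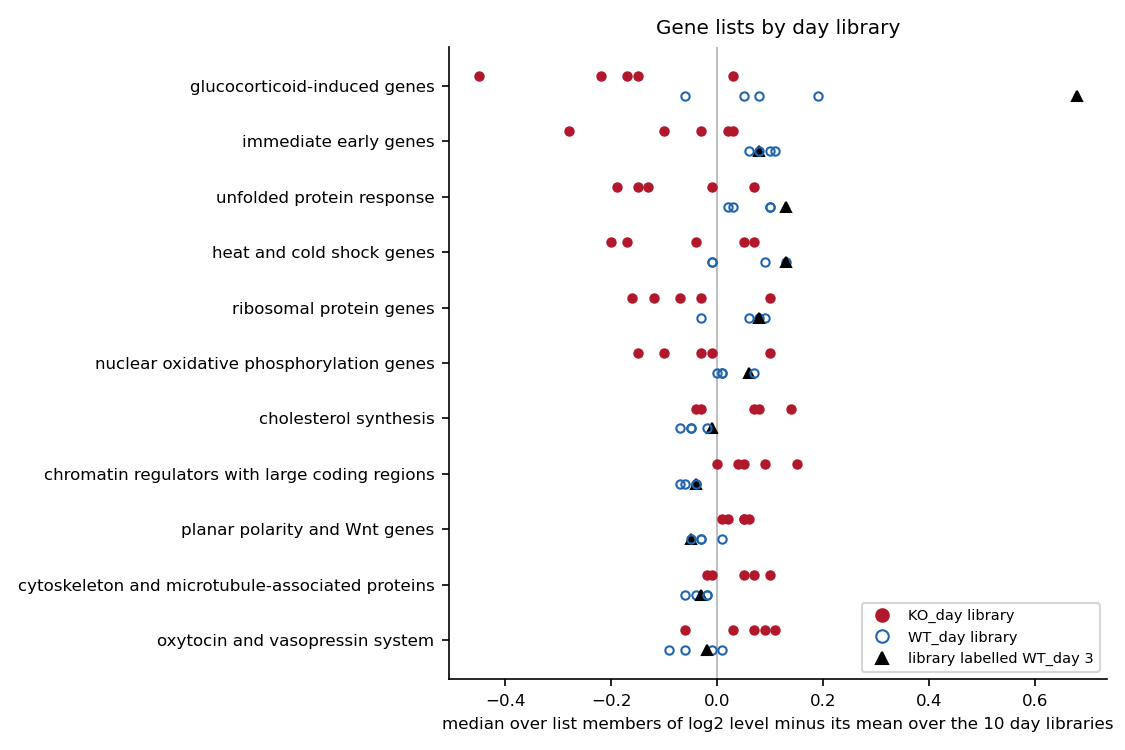
Median over the members of each of 11 gene lists of the log2 level minus its mean over the 10 day libraries, 1 point per library, with the KO_day libraries of a list (red) drawn in a row over its WT_day libraries (blue) and WT_day 3 as a black triangle. WT_day 3 stands at 0.68 for glucocorticoid-induced genes, beside -0.06 to 0.19 in the 4 other WT_day libraries and -0.45 to 0.03 in KO_day, and at -0.04 for chromatin regulators, beside -0.07 to -0.04 in the others.

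Chaperones of the endoplasmic reticulum were lower by small amounts. All 18 tested genes of the unfolded protein response were lower, with a median of -0.18 (-0.16 without WT_day 3, and -0.05 with time taken from the time field). An unadjusted p under 0.05 was found for 9 of them, beside 9.62% of all tested genes, and none passed. Summed levels overlapped, at 1190 to 1450 CPM in KO_day and 1390 to 1520 in WT_day, with KO_day 1 in the WT_day range. Xbp1, the spliced transcription factor of that response, stood at 70.0, 56.6, 55.4, 56.5 and 55.0 CPM in KO_day 1 to 5, against 72.6, 70.7, 75.1, 69.0 and 65.2 CPM in WT_day 1 to 5 (change -0.27, adjusted p = 0.217), with KO_day 1 alone in the WT_day range. Hspa5, its main chaperone, changed by -0.26 (0.354). Of 11 heat and cold shock genes 8 were lower with a median of -0.16 (-0.13 without WT_day 3, and 0 with time taken from the time field), and the cold-induced Rbm3 was higher without overlap (26.4 to 31.8 CPM in KO_day, 22.4 to 25 in WT_day; change 0.31, 0.195). Summed levels of this list were 1750 to 2090 CPM in KO_day and 1950 to 2150 in WT_day, with KO_day 1 and KO_day 4 in the WT_day range. Both lists were on the other side of 0 at night, with medians of 0.08 and 0.10.

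Hypothalamic peptide systems gave no passing gene by day. Oxt stood at 234, 225, 250, 291 and 261 CPM in KO_day 1 to 5, against 192, 191, 271, 203 and 234 CPM in WT_day 1 to 5, and the groups overlapped, with WT_day 3 the highest WT_day library. Its change was 0.21 ± 0.0975 (adjusted p = 0.496) and 0.31 without WT_day 3 (0.246). Avp averaged 253 ± 33.5 CPM in KO_day and 218 ± 16.2 in WT_day (SD, n = 5 each; change 0.21, adjusted p = 0.530). Otp, a transcription factor of oxytocin and vasopressin neurons, was higher in every KO_day library, at 7.53 to 8.77 CPM against 5.78 to 7.22 in WT_day (change 0.38, 0.0641; 0.37, 0.130 without WT_day 3). In the oxytocin and vasopressin system 6 of 9 genes were higher, with a median of 0.08. Of 27 feeding peptides and receptors 13 were higher and 14 lower, with a median of -0.01, and Crh, which starts the stress axis, stood at 3.13 ± 0.789 CPM in KO_day and 4.37 ± 0.778 in WT_day (SD, n = 5 each; change -0.47, adjusted p = 0.241). Clock genes highest in the light phase had a median of 0.19 (0.23 without WT_day 3, and 0.06 with time taken from the time field), with 4 of 7 higher and none passing. Among them Dbp was at 0.27 (adjusted p = 0.335), Per1 at 0.24 (0.299) and Hlf at 0.23 (0.141). Retromer, WASH and ligase partners of Magel2 were split, with 6 of 12 higher and 6 lower. Of 33 tested imprinted genes of the wider list 24 were higher and 9 lower, Ndn and Magel2 among these 9 and the only ones that passed, with Dlk1 at 0.26 (0.110) and Calcr at 0.28 (0.154). No marker list of a cell type or neighbouring tissue held a passing gene. Medians were 0.02 over 12 neuron markers, -0.05 over 10 microglia markers, 0.17 over 8 meningeal markers, -0.19 over 6 blood markers and -1.11 over 9 pituitary markers, whose summed level was 37.9 to 90.1 CPM in KO_day and 48.6 to 888 in WT_day. Of 8 striatum markers 6 were lower with a median of -0.11, and their summed level did not overlap, at 240 to 278 CPM in KO_day and 281 to 315 in WT_day. Without WT_day 1 the pituitary median was -0.03, and without WT_day 5 the blood median was 0.18. With only libraries whose time labels agree the meningeal median was -0.19. The part of these tissues in the results was not tested.

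The 20 passing genes other than Ndn, Magel2, Gm32061 and the 2 pseudogenes had smaller estimated changes at night. The size of the change was smaller at night for all 20, and WT_day was the lowest of the 4 group means for all 13 that rose and the highest for all 7 that fell. Mtss1l, for example, averaged 74.7 ± 4.22 CPM in KO_day and 57.4 ± 2.22 in WT_day, but 71.5 ± 7.81 in KO_night and 69.4 ± 6.45 in WT_night (SD, n = 5 each). Pdgfd averaged 23.3 ± 2.22 in KO_day and 32.8 ± 2.16 in WT_day, beside 23.8 ± 1.89 in KO_night and 26.0 ± 1.75 in WT_night. The genes were chosen for their change by day. Neither the smaller change at night nor the place of WT_day among the 4 group means is independent of that choice. The test of the difference between day and night called none of the 22181 genes (0%), while 4910 had an unadjusted p under 0.05 (22.1%), and 15 of the 20 were among these. Their adjusted p for the difference ran from 0.0543 (Tsc22d3) to 0.519 (Tril), so no difference between day and night was shown for any of them. In place of 0, the count was 1555 without WT_night 4, 1512 without KO_night 4, 717 without KO_day 4 and 474 without KO_day 1, and the DESeq2 test of the difference was not run.

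**Figure D5:**
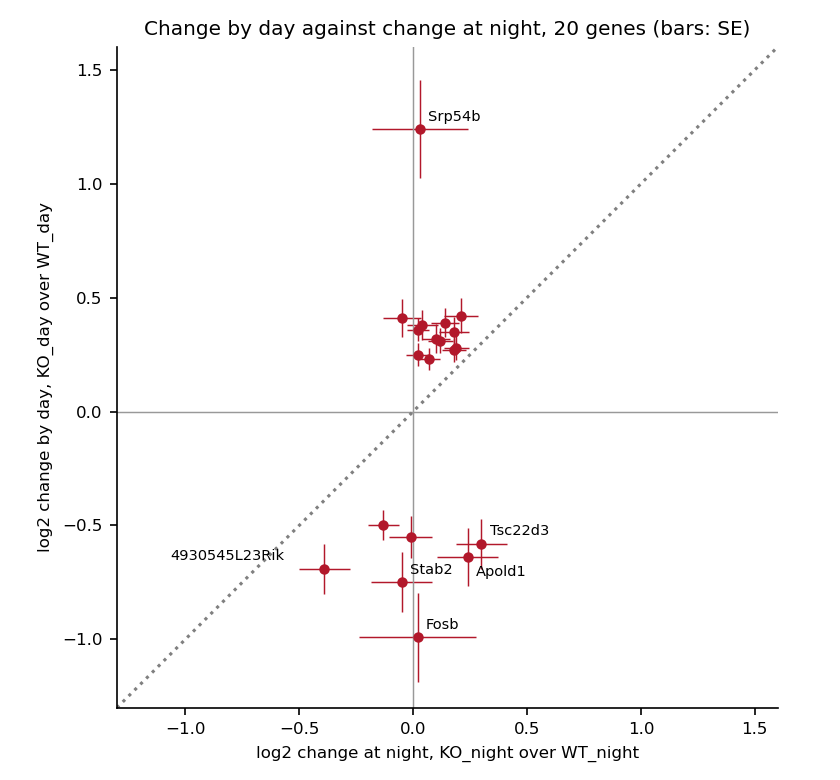
Change by day (vertical, KO_day over WT_day, log2) against change at night (horizontal, KO_night over WT_night, log2) for the 20 passing genes outside the deleted locus, with standard errors as bars and the line of equal change dotted. All 20 lie further from 0 by day than at night, and Srp54b and Fosb are near 0 at night (0.03 and 0.02).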

How the data were processed

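Gene counts of 20 hypothalamus libraries, 5 each of KO_day, WT_day, KO_night and WT_night, were analysed as deposited. The authors aligned reads with HISAT2 and counted them with featureCounts on mm10, per the submitters' processing notes; versions and settings are not given in the sources used here. Each table held counts of 53801 genes, of which 53706 matched GENCODE M21, and 0.0782% of counts lay in the others. Of protein-coding genes annotated inside a gene on the same strand 303 of 304 were at 0 in all libraries (99.7%). Inside a gene on the opposite strand it was 37 of 734 (5.04%), so counts depended on strand. Gm32061 nevertheless followed the sum of Ndn and Magel2 on the opposite strand, so genes that overlap on opposite strands may share reads.

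Time was taken from the titles, against the time field of 2 day and 4 night libraries, except for KO_day 5, whose title gives none and whose time field says day. WT_day 5 was numbered by order, since its title repeats the number 4. Genes were kept by filterByExpr (minimum count 10), scaled by TMM (factors 0.945 to 1.08) and tested in edgeR 4.0.16 (R 4.3.3) with the quasi-likelihood F-test on 4 group means over all 20 libraries, with Benjamini-Hochberg adjustment over 22181 genes at 0.05. "Rose" and "fell" are used only of passing genes. Changes are log2, KO_day over WT_day. Levels are TMM-scaled CPM from the deposited counts, with SD. A level given for a gene on the opposite strand is a mean over all 20 libraries, while its change is by day. The common biological coefficient of variation was 0.0918, and libraries held 32066289 to 48697647 counts. Intervals and limits are on the library's total before adjustment and cover counting error only. The script was tested on simulated data. DESeq2 1.42.0, RLE scaling, no filter, a block, other time labels, trend removal (a lowess curve entered as an offset) and leaving out libraries were the alternatives. The removal of the GC trend and the fit without KO_day 1 and KO_day 2 were chosen after seeing the data. Named genes are the passing genes with and without WT_day 3, and up to 4 members of each gene list by unadjusted p, plus Oxt and Avp. Dbp, Dhcr7, Srebf2, Hspa5, Fos, Arc and Ube3a were named after their values were seen. The members and lists were chosen with earlier results of these data known. Some items, 1 passing gene among them, are not reported here by name.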

Additional observations from a re-analysis of the deposited data

Results flagged for a closer look

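A library stood apart from the 4 others of its group in 19 of 156 groups checked over 78 genes (5 in each group), and chance gives about 1 in 20. WT_day 3 was the one in 5 of these. Ndn was at 31.0 CPM in WT_day 3 (248 to 274 in the other WT_day libraries), Magel2 at 2.16 (15.6 to 17.9), Gm32061 at 33.9 (265 to 292), Tsc22d3 at 134 (90.5 to 103) and Atp5s at 25.9 (13.5 to 14.1). Atp5s, a mitochondrial ATP synthase factor, was also high in KO_day 5, at 259 CPM beside 13 to 14.5 in the other KO_day libraries.

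KO_day 2 was low for Map1a at 345 CPM (420 to 448 in the other KO_day libraries), Lrp1 at 333 (387 to 402) and Celsr2 at 70.2 (82.6 to 87.1). KO_day 1 was high for Plin4 at 7.34 CPM (3.75 to 4.75), Fosl2 at 13.7 (8.05 to 9.46), Xbp1 at 70.0 (55.0 to 56.6) and Pou1f1, a pituitary transcription factor, at 0.484 (0 to 0.0827). KO_day 4 was low for 4930545L23Rik at 7.28 CPM (9.87 to 10.2). WT_day 1 was high for the pituitary genes Gh at 656 CPM (17 to 84.8 in the other WT_day libraries), Prl at 85.3 (1.28 to 10.7) and Pou1f1 at 3.22 (0.109 to 0.29), and for Otp at 7.22 (5.78 to 6.16). Pdgfd was high in WT_day 5 at 36.5 CPM (31.4 to 32.8).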

How the results depend on the processing

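The 25 genes that passed by day became 127 with only the day libraries, 60 with no filter on low counts, 89 with only libraries whose time labels agree, 149 with time taken from the time field, 66 with the GC trend removed, 76 without KO_day 1 and KO_day 2 and 190 by DESeq2's Wald test; the cause was not tested. With the replicate number as a replicate block 48 passed and Tsc22d3 did not (adjusted p = 0.0562). Whether the numbers pair the samples is not known, since the labels do not say and the correlations are too weak to decide. Same-number correlations ran from -0.109 to 0.22 and other-number correlations from -0.216 to 0.142. Of the KO_day libraries 2 of 5 correlated best with their own number. Leaving out 1 library gave 15 to 73 genes by day. The test of the difference between day and night, which called 0 genes, called 105 with no filter, 1 with the length trend removed, 56 with the GC trend removed, 15 without KO_day 1 and KO_day 2, and 0 to 1555 without 1 library. The change of Atp5s, 1.96, reversed to -0.22 without KO_day 5, was at most 2.22 in the other fits without 1 library, and was 2.57 without both KO_day 1 and KO_day 2. Over single genes and alternatives 2137 values kept their direction and side of the threshold, 173 became stronger, 97 weaker and 1 reversed.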
